A study of Vernicia fordii and Jatropha curcas with 4 samples.

Results

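Lignin and the secondary cell wall were followed through 47 Arabidopsis loci in the seeds of physic nut (Jatropha curcas) and of the tung tree (Vernicia fordii), both grown for seed oil. A contig, that is an assembled transcript, belonged to the set when its deposited Arabidopsis match was a listed locus, and the RPKM values (reads scaled to contig length and library size) of all contigs of a locus were summed. Jatropha contigs carried 32 of the 47 loci, out of 13319 loci in that table, and Vernicia contigs carried 33, out of 13333. Together 38 loci were found, 27 in both species, 5 in Jatropha alone and 6 in Vernicia alone, and each species had 65 contigs for them. No contig was matched to LAC17, CESA8, FLA11, IRX15, MYB46, MYB58, MYB103, SND1 or NST2. The deposited tables give locus codes without gene names, so the names and roles used here are those of the Arabidopsis genes, as general background, and a role in either tree was not measured.

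The seeds came from 3-year-old trees, and no cultivar, treatment or genetic change is given. Each species was sampled at an early stage of oil accumulation (S1) and at a stage of fast accumulation (S2), in Jatropha 29 and 37 days and in Vernicia 90 and 135 days after pollination. The sample records name endosperm as the source and seeds as the tissue. Each of the 4 libraries was made from the mixed RNA of 3 seeds, so there were 2 libraries per species and 1 per stage. The value columns bear the numbers 7 and 8, and none of the labels links a number to a stage: "library 8 lower" therefore has no direction in time, and library 8 of Jatropha need not be the same stage as library 8 of Vernicia. With 1 library per stage there was no replicate check and no test, and every difference below compares 2 pools of seeds. The tables were normalized separately, so values of both species given side by side are no comparison of levels between the trees.

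Lignin is a polymer of phenolic alcohols, the monolignols, that are built from phenylalanine in the cytosol, exported, and oxidised in the wall by laccases and peroxidases. It impregnates secondary walls, which are laid down inside the primary wall after growth stops and consist mainly of cellulose and xylan. In seeds such walls are typical of hard seed coat layers and of the xylem in the vascular strand, whereas endosperm and embryo cells mostly keep thin primary walls. In Arabidopsis a cascade of NAC and MYB transcription factors switches on many genes of secondary wall formation.

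Most transcripts of the set were lower in library 8 than in library 7 in both species, but as deposited the typical transcript of the seed was lower there as well. A locus was counted when it had at least 1 RPKM in either library, and it was called when log2((library 8 + 1)/(library 7 + 1)) reached 2-fold. In Jatropha 30 of the 32 loci were counted, of which 17 were called lower and 0 higher in library 8. The same call was made for 46.9% (lower) and 7.15% (higher) of all counted Jatropha loci. In Vernicia 30 of the 33 loci were counted, with 17 called lower and 1 higher, against 18.8% and 7.70% of all counted loci. The median difference of the counted members was -1.30 on the log2 scale in Jatropha, where that of all loci was -0.93, and -1.14 in Vernicia, where that of all loci was -0.48. Of the 17 Jatropha loci called lower, 4 were listed at 0 in library 8, so their share of these medians rests on the pseudocount.

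Trimmed mean scaling multiplies library 8 so that the average contig is level between libraries, here by 0.84 in Jatropha and 0.40 in Vernicia (log2 of the factor). Because of the pseudocount the difference of a low locus moved by less than the factor, and that of a locus listed at 0 in library 8 could not move. The median of all loci moved from -0.93 to -0.19 in Jatropha and from -0.48 to -0.12 in Vernicia. On that scale 14 Jatropha members were lower and 2 higher, against 23.9% and 15.3% of all loci. In Vernicia 11 were lower and 1 higher, against 9.36% and 11.2%. The sign turned at 9 of the 30 counted members in Jatropha (PAL1, HCT, C3'H, COMT1, CAD5, CAD4, IRX10, XCP1 and XCP2) and at 3 in Vernicia (4CL2, CCoAOMT1 and XCP2), none of which had been called. As deposited, the called members closest to the 2-fold limit were COMT1 in Vernicia at -1.04 and PARVUS in Jatropha at -1.09, while no counted member lay within 0.15 of it on the uncalled side. On the scaled values 4 members lay there, MYB83 at -0.96, CAD4 at -0.94 and 4CL1 at -0.91 in Vernicia and CCoAOMT1 at 0.87 in Jatropha.

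**Figure D1:**
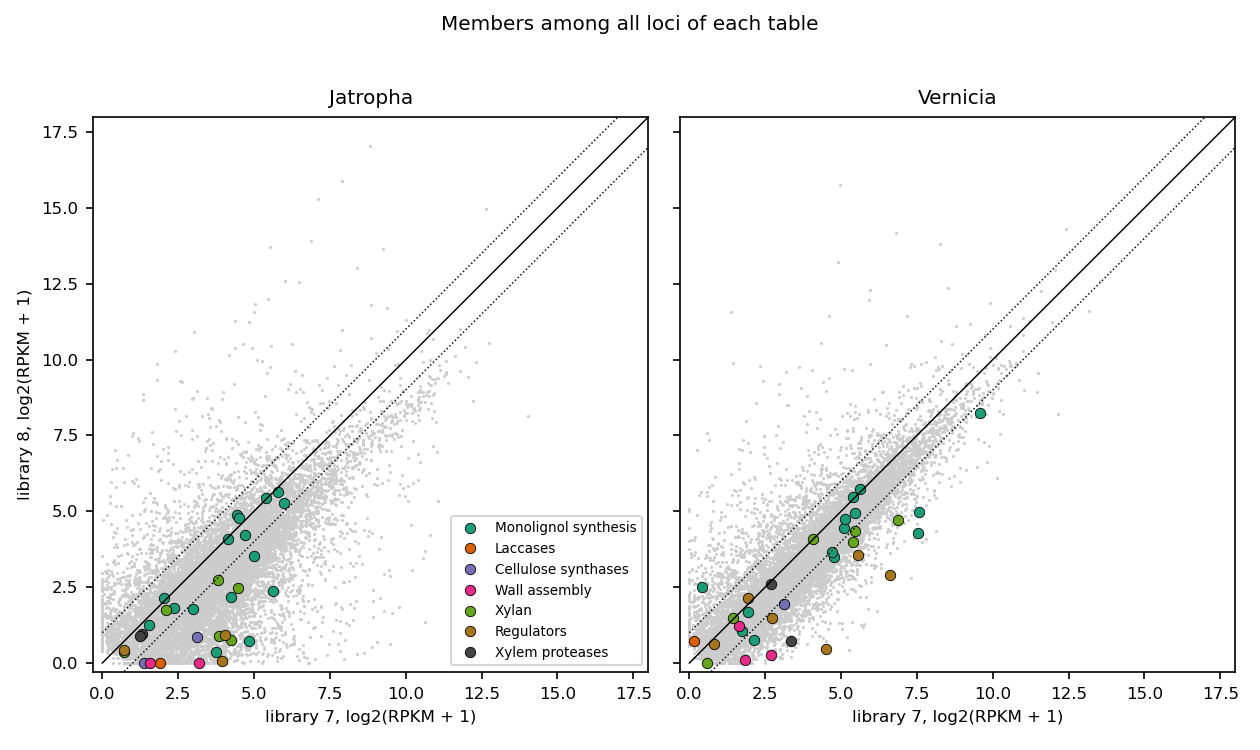
Level of every locus in library 7 (x axis) and library 8 (y axis) of each species, as log2(RPKM + 1), with the members coloured by role over all loci of the table in grey, a solid line of equality and dotted lines at 2-fold. Most members lie below the line of equality in both panels, where most of the grey cloud lies too, and several Jatropha wall genes lie on the floor of the plot because they are listed at 0 in library 8.

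Many markers of seed tissues differed between the same libraries, where many other loci differed too. Of all counted Jatropha loci 46.9% were called lower in library 8 and 7.15% higher as deposited. For Vernicia loci it was 18.8% lower and 7.70% higher. The trimmed mean scale gave 23.9% lower and 15.3% higher in Jatropha, and 9.36% and 11.2% in Vernicia. The marker counts below were not tested against the shares of all loci. Of 7 seed coat genes, 6 were matched in Jatropha, and their summed level was 149 RPKM in library 7 and 6.78 RPKM in library 8. All 5 that were counted were called lower in library 8 under either scaling. TT16 (AT5G23260), a MADS-box gene of the inner seed coat, had 91.5 and 1.76 RPKM, STK (AT4G09960), which specifies ovule and seed coat identity, had 32.4 and 0.71 RPKM, and BAN (AT1G61720), an enzyme of tannin synthesis, had 18.4 and 3.52 RPKM. In Vernicia all 7 were matched, summing to 426 and 176 RPKM, with 3 called lower and none at 0. There TT16 had 301 and 94.2 RPKM and STK 77.25 and 20.75 RPKM, whereas BAN had 27.9 and 53.75 RPKM, under 2-fold as deposited and called higher after trimmed mean scaling at 1.32. Of 7 endosperm genes 3 were matched in each species, with sums of 48.9 and 5.46 RPKM in Jatropha and of 30.7 and 9.91 RPKM in Vernicia. All 3 were called lower in Jatropha as deposited, led by ZOU (AT1G49770) at 37.9 and 3.09 RPKM. After trimmed mean scaling 2 of them were, while AGL62 (AT5G60440) fell under 2-fold there at -0.66. In Vernicia only AGL62 was called lower, under either scaling, at 23.7 and 4.88 RPKM. FIS2, MEA, PHE1 and EPR1, also markers of endosperm in Arabidopsis, had no contig in either table. Of 5 embryo genes 3 were matched in Jatropha, where LEC2 (AT1G28300) had 21.25 and 0.19 RPKM, while FUS3 (AT3G26790) with 7.94 and 8.39 RPKM and STM (AT1G62360) with 4.62 and 4.09 RPKM lay under 2-fold under either scaling. In Vernicia 4 were matched, summing to 82.5 and 199 RPKM, with 2 called higher and none lower, led by LEC1 (AT1G21970) at 75.3 and 183 RPKM. Of 6 xylem vessel genes 2 were matched in Jatropha, where RNS3 (AT1G26820) had 4.47 and 0.44 RPKM and was called lower and BFN1 (AT1G11190) had 1.59 and 1.43 RPKM. The 4 matched in Vernicia did not share a direction: BFN1 was called lower with 63.2 and 18.4 RPKM, XSP1 (AT4G00230) higher with 0.40 and 4.51 RPKM, and RNS3 and VND6 lay under 2-fold. Of 4 genes of the valve margin of the fruit, which lignifies in Arabidopsis, 2 were matched in Jatropha and none in Vernicia. In Jatropha SHP1 (AT3G58780) had 47.05 and 1.21 RPKM. SHP2 (AT2G42830) had 0.97 and 0.65 RPKM there, too low to be counted as deposited and under 2-fold after trimmed mean scaling. Contigs matched to seed coat genes of Arabidopsis were thus present, although the label names endosperm. In library 8 of Jatropha they were at a low level, as were those matched to the endosperm genes, LEC2 and SHP1. The other matched embryo genes, FUS3 and STM, lay under 2-fold, and SHP2 was low in both libraries. The part of the tissue makeup in the wall gene differences was not tested, and in such bulk samples fewer cells of a type cannot be told apart from less RNA per cell.

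At the entry into the pathway PAL2 was called lower in both species and PAL4 in opposite directions, while PAL1 and C4H lay under 2-fold as deposited. Phenylalanine ammonia-lyase (PAL) removes ammonia from phenylalanine, and cinnamate 4-hydroxylase (C4H) adds the first hydroxyl group. PAL1 (AT2G37040) had 4.20 RPKM in library 7 and 2.53 in library 8 of Jatropha, and 33.3 and 20.7 in Vernicia, log2 differences of -0.56 and -0.66 as deposited and of 0.09 and -0.28 after trimmed mean scaling. PAL2 (AT3G53260) had 17.9 and 3.56 RPKM in Jatropha and 3.35 and 0.68 in Vernicia. PAL2 was thus called lower in library 8 of both species, at -2.05 and -1.37 on the log2 scale, although it was the leading PAL locus in Jatropha library 7 and a minor one in Vernicia. PAL4 (AT3G10340) had 6.90 and 2.42 RPKM in Jatropha and 0.35 and 4.69 in Vernicia. It was the only counted member called higher in library 8 of Vernicia, at a log2 difference of 2.08, and was called lower in Jatropha at -1.21, a call that ended after trimmed mean scaling at -0.57. C4H (AT2G30490) had 20.6 and 28.6 RPKM in Jatropha and 48.0 and 52.7 in Vernicia, under the 2-fold limit in both. After trimmed mean scaling C4H in Jatropha was called higher, at 1.27, and in Vernicia it differed by 0.53. Contigs that share a comp number were matched to different PAL loci. In Jatropha comp23570_c0 was matched to PAL2 and comp23570_c1 to PAL4, and in Vernicia comp17083_c0 to PAL2 and comp17083_c1 to PAL1. Whether a PAL locus stands for the same gene in both trees was not checked.

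The 4-coumarate:CoA ligases (4CL), which activate the acids as CoA esters, were not alike. In Arabidopsis 4CL1 and 4CL2 serve mainly lignin and 4CL3 serves mainly flavonoids. 4CL1 (AT1G51680) had 30.8 and 10.6 RPKM in Jatropha and 26.2 and 10.2 in Vernicia, log2 differences of -1.46 and -1.28. Neither 4CL1 difference reached 2-fold after trimmed mean scaling, at -0.67 and -0.91. The Jatropha sum joined comp17624_c0, with 25.5 and 0.30 RPKM, to comp7373_c0, with 5.23 and 10.3 RPKM. The log2 differences of these contigs were -4.35 and 0.86 as deposited. Contigs numbered comp17624 in Jatropha and comp17294 in Vernicia were split between 4CL1 and 4CL2. 4CL2 (AT3G21240) had 3.06 and 3.39 RPKM in Jatropha and 2.82 and 2.18 in Vernicia, under 2-fold in each. 4CL3 (AT1G65060), found in Jatropha only, had 27.7 and 0.65 RPKM, a log2 difference of -4.12 as deposited and -3.73 after trimmed mean scaling.

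Of the steps that form the caffeoyl ring, CSE was called lower in both species and C3'H in Vernicia alone. HCT and C3'H couple and hydroxylate p-coumarate on a shikimate carrier, and CSE (caffeoyl shikimate esterase) releases caffeate from it. C3'H (AT2G40890) had 25.3 and 17.6 RPKM in Jatropha, under 2-fold, and 187 and 18.7 RPKM in Vernicia, a log2 difference of -3.25. CSE (AT1G52760) had 48.0 and 4.23 RPKM in Jatropha and 189.8 and 30.6 in Vernicia, log2 differences of -3.23 and -2.59. CSE was called lower in library 8 of both species under either scaling, and in library 7 of Vernicia CSE ranked 406 and C3'H 415 by RPKM among 13333 loci. HCT (AT5G48930) had 16.8 and 16.0 RPKM in Jatropha and 42.9 and 30.1 in Vernicia, both under 2-fold as sums over contigs.

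The methylating and reducing enzymes at the end of the pathway included the most abundant transcripts of the set. CCoAOMT1 and COMT1 add methyl groups to the ring, F5H1 hydroxylates it on the way to syringyl units, and CCR and CAD reduce the CoA esters to aldehydes and the aldehydes to alcohols. CCoAOMT1 (AT4G34050) had 40.9 and 42.2 RPKM in Jatropha and 33.8 and 25.7 in Vernicia. F5H1 (AT4G36220) had 21.6 and 26.4 RPKM in Jatropha and 41.5 and 43.8 in Vernicia. Neither locus reached 2-fold as deposited, and after trimmed mean scaling F5H1 in Jatropha was called higher at 1.09. COMT1 (AT5G54160) had 54.6 and 49.2 RPKM in Jatropha and 25.1 and 11.7 in Vernicia, where the log2 difference was -1.04 as deposited and -0.67 after trimmed mean scaling. CCR1 (AT1G15950), matched in Jatropha only, had 12.3 and 0.30 RPKM, a log2 difference of -3.36. CAD4 (AT3G19450) had 61.9 and 37.3 RPKM in Jatropha, and 760.2 and 301 in Vernicia. It was thus the highest member in library 7 of both species, and in Vernicia it ranked 67 of 13333 loci in library 7 and 216 in library 8. Its log2 difference was -0.72 in Jatropha, where the sign turned after trimmed mean scaling to 0.11, and -1.34 in Vernicia, where it missed 2-fold after that scaling at -0.94. CAD5 (AT4G34230), the other main CAD of Arabidopsis, had 1.92 and 1.39 RPKM in Jatropha and 2.33 and 1.10 in Vernicia, under 2-fold in each.

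Over the 16 monolignol loci, all found in Jatropha and 14 in Vernicia, the pathway held the bulk of the signal of the set. Its summed level was 394 RPKM in library 7 and 246 RPKM in library 8 of Jatropha, and 1396 and 553 RPKM in Vernicia, where CAD4 alone made up 54.4% and 54.3% of the sum. In Jatropha 6 loci were called lower, or 37.5% against 46.9% of all loci, and 10 lay under 2-fold. Their median log2 difference of -0.53 was above the -0.93 of all Jatropha loci. In Vernicia 6 were lower, or 42.9% against 18.8% of all loci, 1 was higher and 7 lay under 2-fold, with a median of -0.66 against -0.48. After trimmed mean scaling the medians were 0.18 and -0.36, with 4 lower (25.0% against 23.9%) and 2 higher in Jatropha and 3 lower (21.4% against 9.36%) and 1 higher in Vernicia. Of the 6 lower loci of each species, 3 were shared (PAL2, 4CL1 and CSE).

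**Figure D2:**
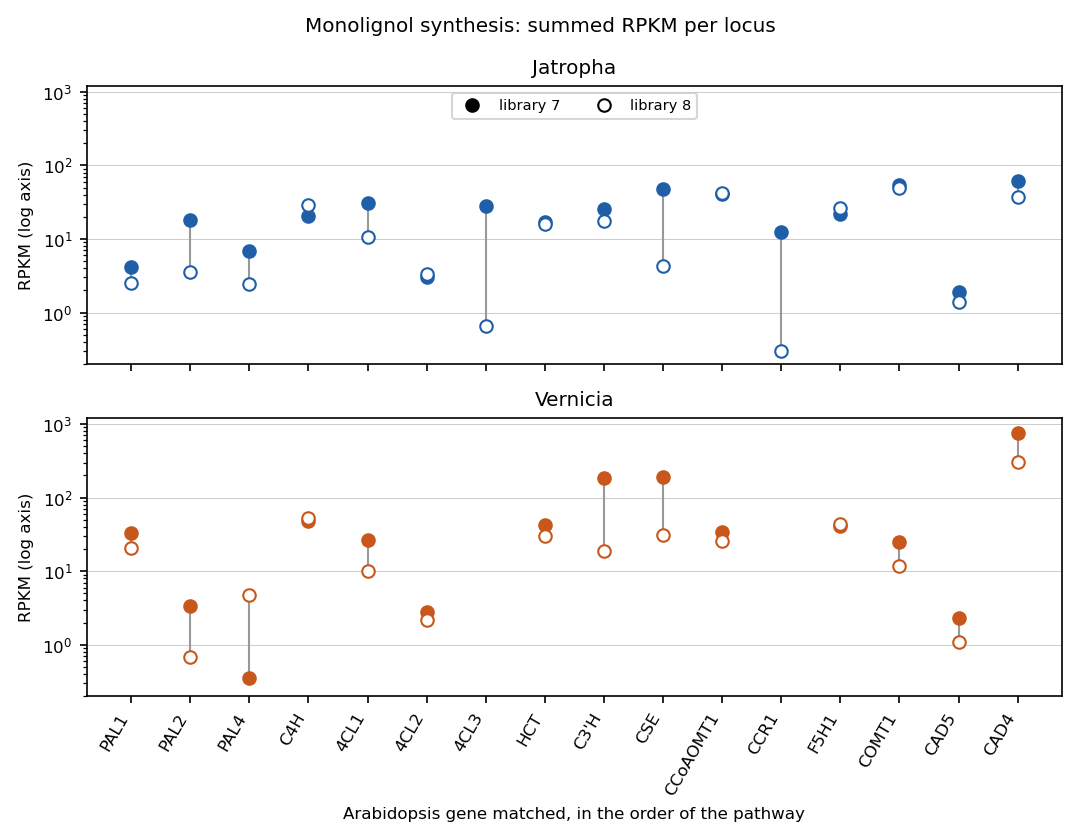
RPKM summed per locus on a log axis for the 16 monolignol loci in pathway order, with filled circles for library 7, open circles for library 8 and a grey line joining the 2 values. The open circles of CSE, PAL2 and 4CL1 lie below the filled ones in both species, those of C4H, F5H1 and CCoAOMT1 lie close to the filled ones, and CAD4 in Vernicia stands above all others at 760.2 and 301 RPKM.

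Several of these loci were sums of contigs that differed in opposite directions. HCT in Jatropha was led by comp24622_c0 in library 7, with 10.8 RPKM against 0.02 in library 8, and by comp22881_c0 in library 8, with 2.06 RPKM in library 7 against 14.5. The log2 differences of these contigs were -3.53 and 2.34, while the HCT sum differed by -0.06. HCT in Vernicia also held contigs called in both directions, comp30865_c0 at 34.1 and 6.73 RPKM and comp20327_c0 at 0.04 and 8.46 RPKM, with log2 differences of -2.18 and 3.19. Its library 8 was led by another contig, comp24795_c0, with 8.31 RPKM in library 7 and 13.65 in library 8, under 2-fold as deposited. F5H1 in Jatropha comprised 8 contigs, of which 4 were called higher in library 8, led by comp25328_c0 with 0.93 and 11.7 RPKM, and 3 lower, led by comp18281_c0 with 14.7 and 0.76 RPKM. CCoAOMT1 in Vernicia joined comp34454_c0, with 33.6 and 9.79 RPKM, to the contigs comp21575_c0, comp21575_c1 and comp21575_c2, which had at most 0.12 RPKM in library 7 and 7.85, 4.86 and 3.18 RPKM in library 8. PARVUS in Vernicia was the remaining case, with comp26633_c1 at 40.6 and 10.8 RPKM and comp221656_c0 at 0.57 and 3.93 RPKM.

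Contigs called in both directions occurred at 2 of the 14 Jatropha members with 2 or more counted contigs and at 3 of 13 in Vernicia. Among all loci with 2 or more counted contigs the share was 7.30% in Jatropha and 4.57% in Vernicia. After trimmed mean scaling the numbers were 5 of 15 against 9.28%, adding 4CL1, C4H and COMT1 in Jatropha, and 4 of 13 against 4.38%, adding ESK1 in Vernicia. Contigs of a locus may be paralogs, alleles or pieces of 1 transcript, and reads may have been split between near-identical copies, so the values of single contigs are uncertain. Over all 54 counted member contigs of Jatropha 29 were lower and 6 higher in library 8, against 37.1% and 17.0% of all contigs. Over the 53 of Vernicia 26 were lower and 6 higher, against 16.8% and 9.77%.

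**Figure D3:**
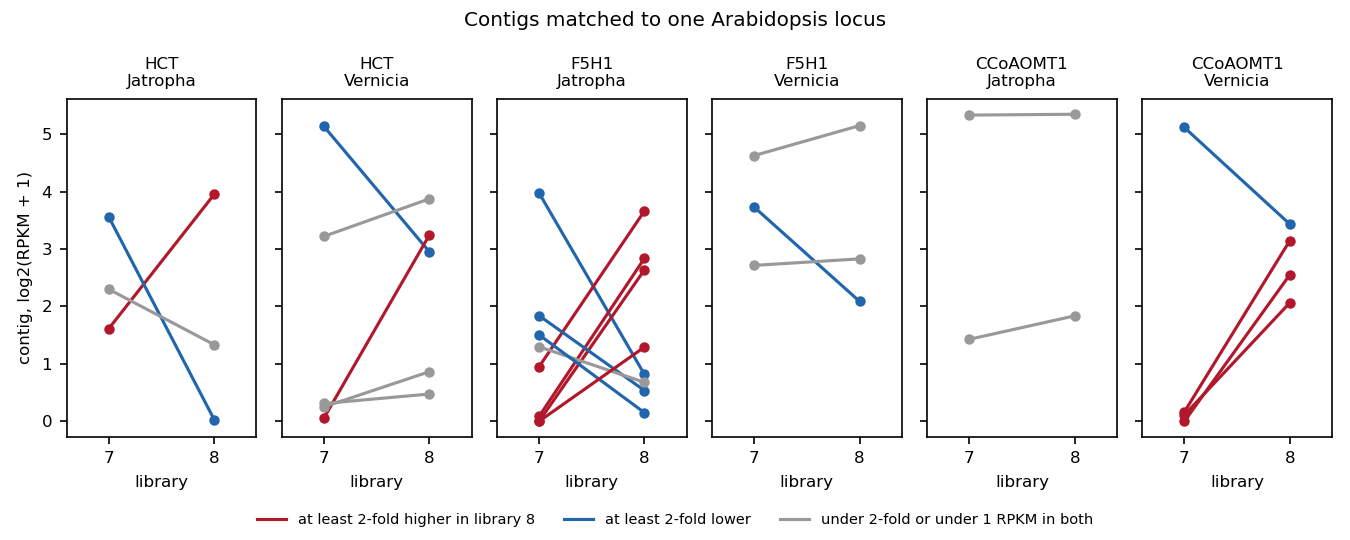
Each line is a contig, drawn as log2(RPKM + 1) in library 7 and library 8, for the loci HCT, F5H1 and CCoAOMT1 in each species. Red lines are contigs at least 2-fold higher in library 8, blue lines at least 2-fold lower and grey lines neither, and red and blue lines cross at HCT in both species, at F5H1 in Jatropha, and converge at CCoAOMT1 in Vernicia.

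Among the polymerising enzymes the laccases were scarce, while 1 peroxidase reached the middle of the range in Jatropha library 7. Laccases oxidise monolignols in the wall, and LAC4, LAC11 and LAC17 share this work in Arabidopsis stems. LAC4 (AT2G38080) had 2.72 RPKM in library 7 of Jatropha and was listed at 0 in library 8, and LAC11 (AT5G03260) had 0.10 and 0.67 RPKM in Vernicia, too low to be counted. LAC17 was matched in neither species. Of the peroxidases linked to lignin in Arabidopsis, PRX72 (AT5G66390) had 14.96 RPKM in library 7 of Jatropha, where the median locus had 12.33, and 0.18 in library 8. Its log2 difference of -3.76 was called lower under either scaling, and in Vernicia PRX72 was not counted, at 0.90 and 0.09 RPKM. PRX64 (AT5G42180), matched in Jatropha only, had 3.73 and 0.25 RPKM and was also called lower under either scaling. PRX52 (AT5G05340) had 0.59 and 1.61 RPKM in Jatropha, called higher after trimmed mean scaling at 1.29, and 3.98 and 3.23 RPKM in Vernicia. PRX47 (AT4G33420), matched in Vernicia only, had 1.04 and 2.62 RPKM, called higher after that scaling at 1.13. Values this low rest on few reads, whose number is not known.

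Cellulose synthases of the secondary wall were also low. CESA4, CESA7 and CESA8 together form the enzyme complex of secondary walls in Arabidopsis. CESA7 (AT5G17420) had 7.75 and 0.81 RPKM over 4 contigs in Jatropha and 7.61 and 2.89 RPKM over 5 contigs in Vernicia, log2 differences of -2.27 and -1.15. The Vernicia call ended after trimmed mean scaling, at -0.84, and turned to 0.18 when only the highest contig was taken, comp20218_c2 with 2.11 and 2.52 RPKM. CESA4 (AT5G44030) had 1.61 RPKM in library 7 of Jatropha and was listed at 0 in library 8. The secondary wall synthases, 2 matched in Jatropha and 1 in Vernicia, summed to 9.36 and 0.81 RPKM, and to 7.61 and 2.89 RPKM. The cellulose synthases grouped here with the primary wall had higher sums over more loci. Of these 5 of 7 were matched in each species, with 94.8 and 63.9 RPKM in Jatropha and 296 and 179 RPKM in Vernicia. Which wall they serve in these seeds was not measured. Their partners KOR1, CSI1, COB and CTL1 summed to 128 and 44.5 RPKM in Jatropha and 193 and 163 RPKM in Vernicia. Of these 9 synthases and partners 5 were called lower in library 8 of Jatropha, or 55.6% against 46.9% of all loci. In Vernicia 3 were, or 33.3% against 18.8%. The counts after trimmed mean scaling were 1 of 9 against 23.9% and 3 of 9 against 9.36%. CESA3 (AT5G05170), the highest of them in Vernicia, had 166 and 151 RPKM there and 28.0 and 11.6 RPKM in Jatropha. CESA2 (AT4G39350) had 61.95 and 5.31 RPKM in Vernicia, a log2 difference of -3.32 that was called lower under either scaling. In Jatropha CESA2 had 45.4 and 40.1 RPKM, under 2-fold.

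Of the proteins that assemble secondary wall cellulose, CTL2 and COBL4 were low in library 7 and at or near 0 in library 8, and FLA12 lay under 2-fold. CTL2 (AT3G16920), a chitinase-like protein that affects cellulose assembly, had 8.12 RPKM and was listed at 0 in Jatropha, and had 5.53 and 0.21 RPKM in Vernicia. COBL4 (AT5G15630), an anchored protein that secondary wall cellulose needs, had 1.95 RPKM and was listed at 0 in Jatropha, and had 2.54 and 0.07 RPKM in Vernicia. Both were called lower in both species, in Vernicia at -2.43 for CTL2 and -1.73 for COBL4, and there also after trimmed mean scaling. In Jatropha a value of 0 in library 8 cannot move with the scaling, and the COBL4 difference of -1.56 depends on the pseudocount: with 5 RPKM it was -0.48 and no longer called, and in Vernicia -0.57. FLA12 (AT5G60490), a fasciclin-like arabinogalactan protein, was matched in Vernicia only, at 2.12 and 1.35 RPKM.

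Xylan genes ranged widely in level within each table. FRA8 and PARVUS are thought to make the end sequence of the xylan chain, IRX9, IRX10 and IRX14 its backbone, and ESK1 adds acetyl groups. FRA8 (AT2G28110) had 13.5 and 0.84 RPKM in Jatropha and 118 and 25.3 in Vernicia, log2 differences of -2.98 and -2.18. PARVUS (AT1G19300) had 13.1 and 5.64 RPKM in Jatropha and 41.2 and 14.7 in Vernicia, log2 differences of -1.09 and -1.43, and after trimmed mean scaling its call held in Vernicia at -1.05 but not in Jatropha at -0.35. IRX14 (AT4G36890) had 21.2 and 4.51 RPKM in Jatropha and 43.4 and 19.2 in Vernicia, log2 differences of -2.01 and -1.14. The IRX14 call held after trimmed mean scaling in Jatropha at -1.29 but not in Vernicia at -0.76. IRX10 (AT1G27440) had 3.31 and 2.32 RPKM in Jatropha and 15.7 and 15.9 in Vernicia, under 2-fold in each. ESK1 (AT3G55990) had 18.0 and 0.70 RPKM over 3 contigs in Jatropha, differing by -3.48 on the log2 scale, and 1.69 and 1.78 RPKM in Vernicia, under 2-fold. IRX8 (AT5G54690) in Jatropha and IRX9 (AT2G37090) in Vernicia were below 1 RPKM in both libraries.

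Over the 8 xylan loci, 4 of 5 counted in Jatropha and 3 of 5 counted in Vernicia were called lower, against 46.9% and 18.8% of all loci. With trimmed mean scaling 3 and 2 were, against 23.9% and 9.36%, and the sums as deposited were 69.7 and 14.3 RPKM and 220.3 and 76.8 RPKM. Of 12 further xylan loci 7 were matched and counted in each species, with 3 called lower in each, a share of 42.9% against 46.9% of all loci in Jatropha and 18.8% in Vernicia. With that scaling 1 was lower in Jatropha, and 2 were lower and 1 higher in Vernicia. GXMT1 (AT1G33800), which methylates xylan side groups, was the highest of these, at 55.5 and 17.0 RPKM in Jatropha and 65.5 and 46.8 in Vernicia. IRX15L (AT5G67210), the close relative of the unmatched IRX15, had 9.23 and 6.34 RPKM in Jatropha and 22.0 and 39.2 in Vernicia, where it was the locus called higher after trimmed mean scaling, at 1.20.

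Among the transcription factors KNAT7 and MYB63 in Jatropha and KNAT7, SND2, MYB85 and MYB83 in Vernicia were called lower. Of 11 regulators 3 were matched in Jatropha and 6 in Vernicia, and the master switches SND1 and MYB46 were matched in neither. KNAT7 (AT1G62990), a homeodomain protein that in Arabidopsis represses secondary wall formation in fibres, had 15.5 and 0.88 RPKM in Jatropha and 46.1 and 10.8 in Vernicia. Its log2 differences were -3.14 and -2.00, and it was called lower in both species under either scaling. SND2 (AT4G28500), a NAC factor downstream of SND1, had 96.1 and 6.49 RPKM in Vernicia, a log2 difference of -3.70, and was not counted in Jatropha at 0.63 and 0.34 RPKM. MYB85 (AT4G22680), an activator of lignin genes, was matched in Vernicia only, where it had 21.7 and 0.38 RPKM and differed by -4.04 on the log2 scale. MYB63 (AT1G79180), another lignin activator, had 14.6 and 0.05 RPKM in Jatropha, a log2 difference of -3.89, and 2.86 and 3.37 RPKM in Vernicia, under 2-fold. MYB83 (AT3G08500), the partner of MYB46, had 5.61 and 1.81 RPKM in Vernicia, where its call at -1.23 ended after trimmed mean scaling at -0.96, and NST1 (AT2G46770) was not counted there at 0.76 and 0.54 RPKM.

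Both counted regulators of Jatropha and 4 of the 5 counted in Vernicia were called lower, against 46.9% and 18.8% of all loci. On the trimmed mean scale both and 3 of 5 were, against 23.9% and 9.36%. The sums of the matched regulators were 30.7 and 1.27 RPKM in Jatropha and 173 and 23.4 RPKM in Vernicia. In library 7 the leading regulator was KNAT7 in Jatropha, with 50.6% of the sum, and SND2 in Vernicia, with 55.5%. MYB63 was close to KNAT7 in library 7 of Jatropha, at 14.6 against 15.5 RPKM. In library 8 KNAT7 led in both species, with 69.3% of the sum in Jatropha and 46.2% in Vernicia. A further 17 wall regulators gave 7 counted loci in Jatropha, 4 lower and 2 higher against 46.9% and 7.15% of all loci, and 6 in Vernicia, 3 lower and 1 higher against 18.8% and 7.70%. MYB61 (AT1G09540), which acts on wall and mucilage formation, had 10.3 and 0.25 RPKM in Jatropha and 96.5 and 11.2 in Vernicia, log2 differences of -3.17 and -2.99. VNI2 (AT5G13180), a NAC repressor of vessel formation, was the highest of these in library 8 of both species, with 44.2 and 23.1 RPKM in Jatropha and 91.8 and 97.3 in Vernicia, under 2-fold in both.

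The xylem proteases XCP1 and XCP2, papain-like enzymes that clear the contents of dying vessel cells, were low. XCP1 (AT4G35350) had 1.49 and 0.95 RPKM in Jatropha and 9.13 and 0.66 RPKM in Vernicia, where its log2 difference was -2.61. XCP2 (AT1G20850) had 1.34 and 0.85 RPKM in Jatropha and 5.40 and 5.03 RPKM in Vernicia, under 2-fold in each.

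**Figure D4:**
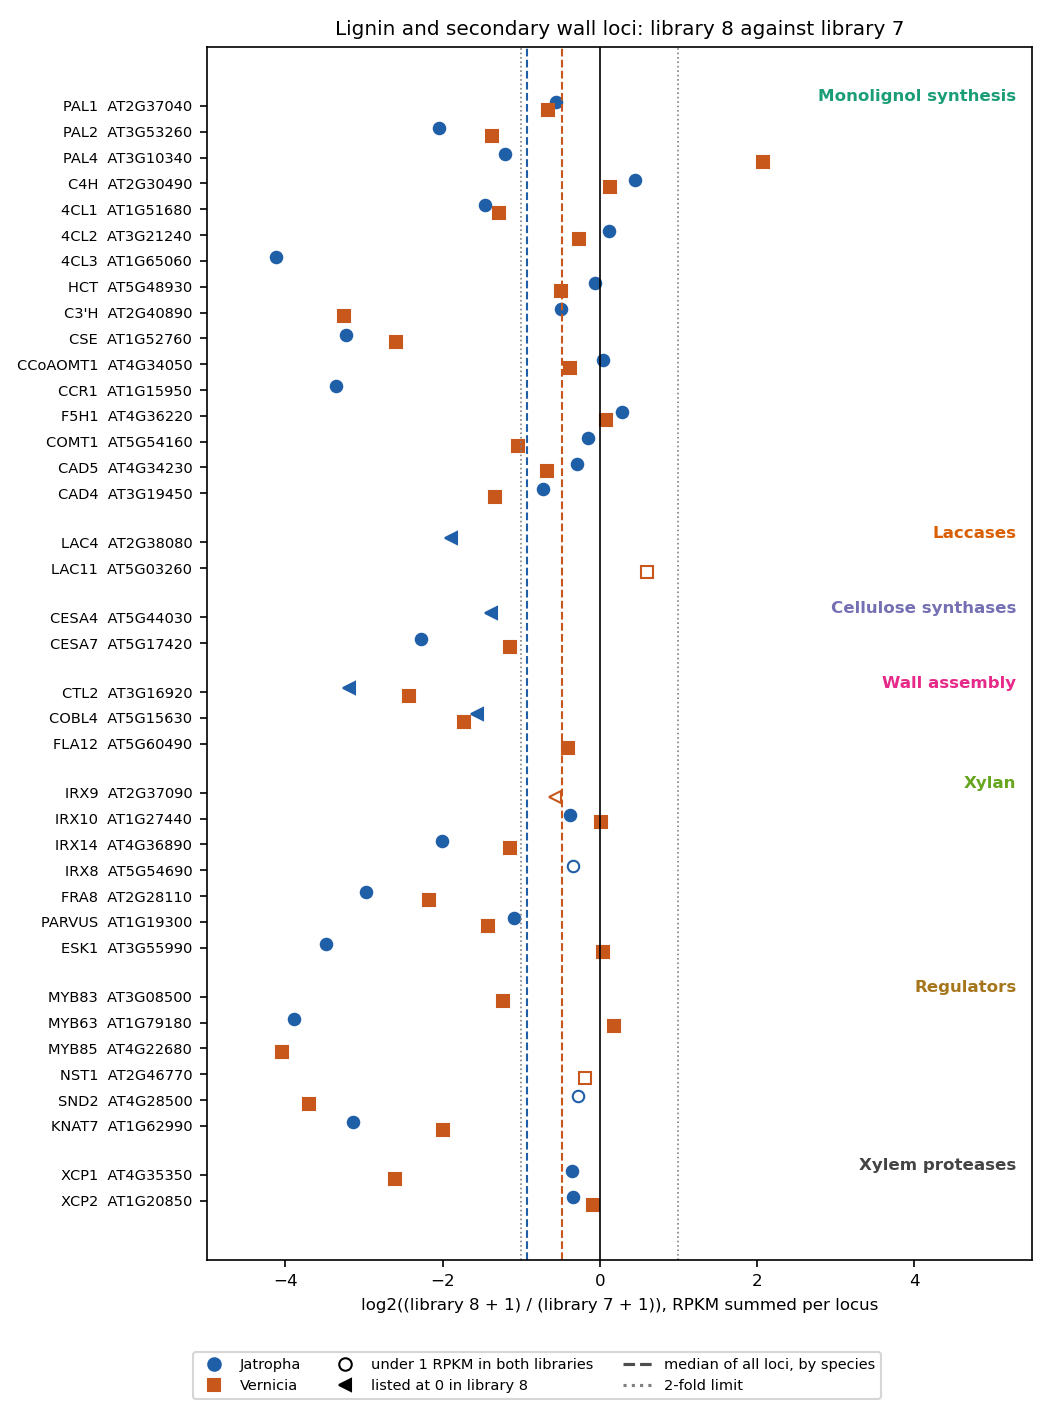
Log2 difference of RPKM summed per locus, library 8 against library 7 with a pseudocount of 1 RPKM, for the 38 matched members grouped by role. Circles are Jatropha, squares Vernicia, triangles loci listed at 0 in library 8, open symbols loci under 1 RPKM in both libraries, dashed lines the median of all loci of each species (-0.93 and -0.48) and dotted lines 2-fold. PAL4 in Vernicia is the only symbol to the right of the upper 2-fold line.

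The remaining enzymes of lignin formation included lower calls in both species and no higher calls as deposited. Of 17 further loci (other PAL, 4CL, CCR and CAD genes, P450 reductases, laccases and peroxidases) 8 were counted in Jatropha, with 4 lower, or 50.0% against 46.9% of all loci, and 7 in Vernicia, with 4 lower, or 57.1% against 18.8%. After trimmed mean scaling 3 were lower and 3 higher in Jatropha, against 23.9% and 15.3%, and 1 lower and 1 higher in Vernicia, against 9.36% and 11.2%. CAD9 (AT4G39330) was the highest, with 55.0 and 63.5 RPKM in Jatropha and 65.1 and 26.3 RPKM in Vernicia. The P450 reductases, which feed electrons to C4H, C3'H and F5H1, were ATR1 (AT4G24520) with 20.7 and 12.1 RPKM in Jatropha and 31.1 and 7.88 in Vernicia, and ATR2 (AT4G30210) with 34.9 and 10.3 RPKM in Jatropha and 42.0 and 26.7 in Vernicia.

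Set side by side, 26 members were counted in both species. Of these, 10 were called lower in library 8 of both (PAL2, 4CL1, CSE, CESA7, CTL2, COBL4, IRX14, FRA8, PARVUS and KNAT7), where 9.55% of the 11054 loci counted in both species had this pattern. None was called higher in both, against 1.85% of those loci, and 9 lay under 2-fold in both (PAL1, C4H, 4CL2, HCT, CCoAOMT1, F5H1, CAD5, IRX10 and XCP2). MYB63 and ESK1 were lower in Jatropha alone, and C3'H, COMT1, CAD4 and XCP1 in Vernicia alone, but the difference between the species was not tested. Among all counted loci 46.9% were called lower in Jatropha and 18.8% in Vernicia. The shares of all loci lower in 1 species alone, or under 2-fold in both, were not computed. Contigs matched to 1 locus need not be the same gene in both trees. PAL4 alone was called in opposite directions, lower in Jatropha and higher in Vernicia, a pattern of 2.82% of the loci, and the reverse pattern, of 0.986% of the loci, was shown by none. After trimmed mean scaling CSE, FRA8, KNAT7, CTL2, PAL2 and COBL4 were still lower in both, 6 of 26 against 3.45% of all loci, and none was higher in both, against 3.02%. No member was then called in opposite directions, against 2.83% of all loci lower in Jatropha and higher in Vernicia and 1.23% the reverse.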

How the data were processed

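Each species has a deposited table of RPKM per contig with the matched Arabidopsis locus (TAIR10, per the file headers); the unit comes from the tables' names. The submitters' processing notes list Bowtie and edgeR with no version or role. For the assembler, the locus search, the counting, its use of strand and the filters, nothing is stated in the sources used here. The authors normalized the tables separately, so levels of both species stand side by side and were not compared. All 4 value columns were used.

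RPKM was summed per locus, and log2((library 8 + 1)/(library 7 + 1)) was computed for every locus, which understates the change of low loci. A locus needed 1 RPKM or more in either library to be counted, and 2-fold differences were called, with no test. Trimmed mean scaling used contigs with at least 1 RPKM in both libraries, leaving out 30% at each end of the log ratio and 5% at each end of the level. The steps were tested on simulated data, with equal numbers of loci raised and lowered 4-fold, each at a mean of 10 RPKM or more. Changes of lower loci, or mostly in 1 direction, were not simulated. Read totals are unknown: among low contigs the most frequent ratio of library 7 to 8 was 1.10 in Jatropha (471 of 5978 contigs) and 0.933 in Vernicia (723 of 9352), which would give relative depth only if those contigs held equal numbers of reads. No counting interval could be given.

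The members and lists were chosen with earlier results of these data known. By rule, values were given for members with at least 10 RPKM in any library and for all matched laccases, cellulose synthases and regulators, and for at most the 3 highest loci of each other list. Lower members, the contigs compared within a locus, ATR1, the peroxidases, VND6, STM, XND1, MYB43, CHI and ANS were added after their values were seen. Gene names and roles were assigned to the locus codes from general knowledge of Arabidopsis, as the tables hold none. Python 3.11.15, pandas 2.3.3, NumPy 2.4.6 and matplotlib 3.10.9 were used.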

Additional observations from a re-analysis of the deposited data

Results flagged for a closer look

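PAL4 (AT3G10340) differed in opposite directions in the species, with a log2 difference of 2.08 in Vernicia (0.35 RPKM in library 7 and 4.69 in library 8, on 1 contig) and of -1.21 in Jatropha (6.90 and 2.42 RPKM over 2 contigs). The difference was not tested, it rests on 1 library per stage, and equal library numbers need not mark equal stages in the 2 trees. Whether the PAL4 contigs of the 2 trees come from the same gene was not checked.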

How the results depend on the processing

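Tried were a pseudocount of 0.1 or 5 RPKM, a filter of 10 RPKM or none, equal totals over all contigs, median-ratio and trimmed mean scaling, a 4-fold threshold, and the highest contig of each locus in place of the sum. In Jatropha, with 17 members lower and 0 higher and a median of -1.30, 11 were lower at 10 RPKM or more and 11 at 4-fold, where fewer can be counted or called. There 2 were higher with median-ratio scaling, trimmed mean scaling and the highest contig, and the median was -0.64 with a pseudocount of 5 RPKM, -0.63 with median-ratio and -0.62 with trimmed mean scaling. In Vernicia, with 17 lower and 1 higher and a median of -1.14, 11 were lower at 10 RPKM or more, with median-ratio scaling and with trimmed mean scaling, and 7 at 4-fold. There 0 were higher with a pseudocount of 5 RPKM or at 10 RPKM or more, and the median was -0.61 with 5 RPKM. Lower in both species were 6 members with a pseudocount of 5 RPKM, at 10 RPKM or more and under median-ratio and trimmed mean scaling, and 3 at 4-fold, against 10. Members in opposite directions numbered 0, against 1, under all alternatives except the pseudocount of 0.1 RPKM and no filter, where it was PAL4, and the highest contig, where it was HCT (2.34 in Jatropha and -2.18 in Vernicia) while PAL4 in Jatropha fell under 2-fold at -0.91. Of the called members, CESA7 in Vernicia turned, to 0.18 with the highest contig alone. Where no construction is named, the cause was not tested. No paired analysis was possible because each stage has 1 library and nothing was tested. Differences at a few RPKM could not be set against counting error, as read totals are unknown.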

Other observations

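The flavonoid branch, which leaves the same pathway after the 4CL step, did not share a direction in Jatropha. CHI (AT3G55120), chalcone isomerase, had 2.03 RPKM in library 7 but 12.6 in library 8, differing by 2.17 on the log2 scale, and F3H (AT3G51240), the next enzyme, had 32.0 and 4.03 RPKM, a log2 difference of -2.71. CHS (AT5G13930), the entry enzyme, had 40.4 and 65.5 RPKM, under 2-fold, and ANS (AT4G22880) near the end of the branch was called lower with 6.36 and 0.84 RPKM. In Vernicia CHS, with 13.8 and 4.64 RPKM, and DFR (AT5G42800), with 13.8 and 4.38 RPKM, were called lower, and none of the 5 loci was called higher. As deposited 2 of 5 loci were thus lower in each species, against 46.9% of all loci in Jatropha and 18.8% in Vernicia. The share of all loci called higher was 7.15% in Jatropha and 7.70% in Vernicia. The 5 loci summed to 85.6 and 85.2 RPKM in Jatropha and to 43.0 and 23.4 RPKM in Vernicia. Calls of CHI, F3H and ANS in Jatropha and of CHS and DFR in Vernicia were in the same direction after trimmed mean scaling, where CHS in Jatropha was also called higher, at 1.51. On that scale 23.9% of all loci were lower and 15.3% higher in Jatropha, and 9.36% and 11.2% in Vernicia.

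XND1 (AT5G64530), a NAC factor that blocks xylem formation in Arabidopsis, was called higher in library 8 of both species as deposited. It had 0.12 and 3.16 RPKM in Jatropha and 2.91 and 7.05 RPKM in Vernicia, log2 differences of 1.89 and 1.04. Of the 17 further wall regulators, MYB43 (AT5G16600) was the other one called higher in Jatropha, with 0.82 and 5.6 RPKM, at 1.86. MYB43 was not matched in Vernicia. Of all loci, 7.15% in Jatropha and 7.70% in Vernicia were called higher. Among the 11054 loci counted in both species 1.85% were called higher in both. XND1 and MYB43 were singled out after their values were seen.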
